A study of Mus musculus with 10 samples.

Results

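The genes described here are 43 DNA replication genes, a set of named members that were all found once, by gene symbol, among the 15899 genes of the Mex3a RNA immunoprecipitation table. They fall into 8 roles: origin recognition and licensing (8 genes), the replicative helicase (6), helicase activation (6), polymerases and primase (6), the sliding clamp and its loader (6), single-strand binding and lagging-strand processing (4), nucleotide supply (3), and handling of chromatin on new DNA (4). In RNA immunoprecipitation followed by sequencing (RIP-seq), RNA recovered with a protein is sequenced and compared with a mock recovery. Neural stem cell cultures were grown as floating neurospheres, with EGF and FGF, from the adult subependymal zone (SEZ) of mice aged 10 weeks. FLAG cultures were Mex3aFLAG/FLAG, in which the endogenous Mex3a gene carries the FLAG tag, and WT cultures were Mex3a+/+ from the same background, without a tag, and served to measure nonspecific recovery. Both were immunoprecipitated with an anti-FLAG antibody, either after formaldehyde crosslinking (2 FLAG and 2 WT libraries) or without it, in the native protocol (3 FLAG and 3 WT libraries). A FLAG over WT difference is therefore a difference in recovered RNA. Recovery with the tagged protein and the abundance of the RNA in the 2 kinds of culture cannot be told apart in it, since input RNA was not analysed here, and neither can the number of cycling cells and the RNA per cell.

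DNA replication starts when the origin recognition complex, with Cdc6 and Cdt1, loads the Mcm helicase onto origins, and continues when Cdc45, the GINS complex and Mcm10 turn that helicase on. Polymerases, the Pcna clamp, single-strand binding proteins and nucleotide-making enzymes then copy the DNA. Many of these genes are expressed with the cell cycle, and in the SEZ they mark activated stem cells and transit-amplifying progenitors, whereas quiescent stem cells express them at low levels. Mex3a is an RNA-binding protein of the MEX-3 family, whose nematode founder binds a bipartite element in 3′ untranslated regions.

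Of the cell type markers, 9 of the 10 for neural stem and progenitor cells were in the table, led by Egfr at a mean log2 value of 10.46, and the log2 of their summed linear level was between 11.06 and 11.60 in every library. Of 24 markers of other cell types 13 were in the table, and the highest summed level of any of these types was that of the neuronal markers, 5.38 to 6.02. The libraries were not alike. FLAG native replicates 1 and 3 had 329 and 178 genes at their lowest value, against at most 3 in any other library, and they are called the shallow libraries here. The name refers to this count alone, since depth per library is not known. FLAG native replicate 2 had a mean Spearman correlation of 0.83 with the other FLAG native libraries and of 0.94 with the WT native libraries. Whether that library carries the genotype of its label, or recovered less of the tagged protein, was not tested. Calls, and the values of Pcna, Mcm4, Rrm2, Rrm1, Mcm2 and Orc3, are also given without it. Values given without both shallow libraries keep replicate 2 as the only FLAG native library. Library totals cannot be read from these normalised values.

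No member passed the test for FLAG over WT, which required an adjusted p under 0.05 and a log2 fold change beyond 0.58 in either direction. The count was 0 of 43 in crosslinked cultures, where 0.0% of all genes passed, 0 of 43 in native cultures, where 0.107% passed, and 0 of 43 over all 10 libraries with protocol as a covariate, where 0.497% passed. With crosslinked and native libraries of the same genotype and number taken as a random block, the count over all libraries was again 0, beside 0.0943% of all genes. Of all genes, 0 passed as higher in FLAG within either protocol, and the 17 that passed in native cultures were all lower. A count of 0 higher members within a protocol was therefore shared by the whole table. Over all libraries, without the block, 42 genes passed as higher and 37 as lower. With an unadjusted p under 0.05 and the same fold, the counts were 0 members in crosslinked cultures (3.77% of all genes), 2 in native cultures (Pcna and Rrm2, 14.8% of all genes) and 1 over all libraries (Pcna, 12.5% of all genes). The median log2 fold change of the members was −0.03 in crosslinked cultures, −0.16 in native cultures and −0.11 over all libraries, beside medians of −0.02, −0.04 and −0.03 for all genes. Over all libraries 14 of 43 members were above 0, against 46.8% of all genes. The members were spread on both sides of 0, from −0.46 to 0.67, so that this median describes no single gene.

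**Figure D1:**
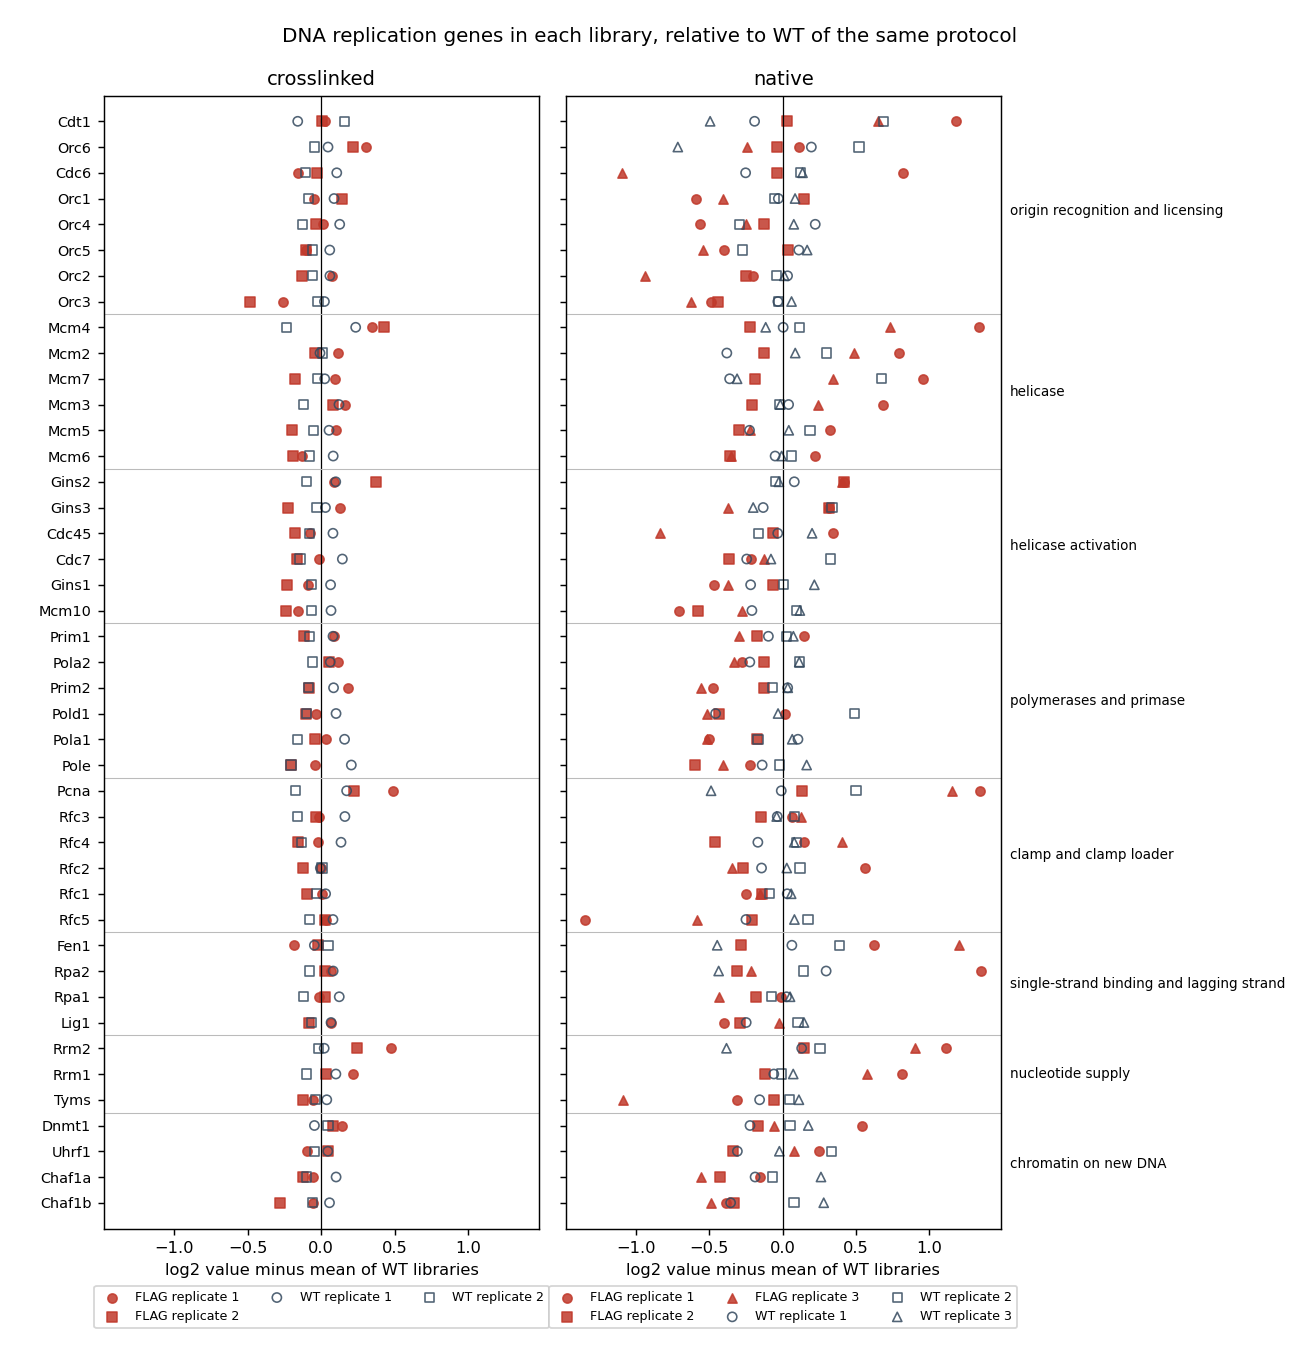
Deposited log2 value of each of the 43 DNA replication genes in each library minus the mean of the WT libraries of the same protocol (x axis, log2), with genes on the y axis grouped by role, FLAG libraries filled and WT libraries open. The crosslinked FLAG libraries stay within 0.49 of the WT mean, whereas FLAG native replicates 1 and 3 reach from −1.35 to 1.35.

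The spread differed between groups of libraries. The median over members of the SD between replicates was 0.09 in FLAG crosslinked, 0.11 in WT crosslinked, 0.33 in FLAG native and 0.20 in WT native libraries. In FLAG native replicate 1, 11 members were more than 0.58 above the WT native mean and 3 were more than 0.58 below it, and in replicate 3 the counts were 5 and 6. Of all genes, 26.1% and 25.3% were so placed in replicate 1 and 23.1% in each direction in replicate 3, so that the members' counts were close to or below those of all genes. In FLAG native replicate 2 they were 0 and 1, beside 7.59% and 7.63% of all genes. In both FLAG crosslinked libraries they were 0 and 0, beside 5.13% to 6.47% of all genes in each direction. The 2 shallow libraries did not deviate on the same genes throughout. Cdc6, the loader of the helicase, was 2.89 in replicate 1 and 0.97 in replicate 3, which gave it the widest spread of any member in that group (SD 0.96, n = 3).

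Pcna, the sliding clamp that holds polymerases on DNA, had the highest FLAG over WT value of the members when all libraries were weighted equally and no trend was removed. Its log2 values were 3.12 and 2.85 in FLAG crosslinked libraries and 2.81 and 2.46 in WT crosslinked libraries. In native libraries they were 4.22, 3.00 and 4.02 for FLAG replicates 1 to 3 and 2.86, 3.37 and 2.38 for WT. The crosslinked groups did not overlap, and the native groups overlapped because FLAG replicate 2 lay inside the WT range. The log2 fold change was 0.36 ± 0.18 (SE) crosslinked, 0.87 ± 0.38 native and 0.67 ± 0.27 over all libraries (adjusted p = 0.202 by limma). With libraries weighted by their fit to the model, the value over all libraries was 0.15 for Pcna, below Gins2 at 0.28 and Rrm2 at 0.27, and Mcm4 was 0.19, with 0 members and 13.0% of all genes passing. In that fit the weights were 10.19 for FLAG crosslinked replicate 2 and 9.02 for WT crosslinked replicate 1. The other libraries had weights from 0.12 to 1.36, so that the weighted values rest mostly on 1 crosslinked library of each genotype. The counts of Pcna are uncertain, because 23.7% of the stretches of 75 bases in its longest transcript match the pseudogene Pcna-ps2. The clamp loader subunits Rfc1 to Rfc4 were between −0.13 and −0.0024 over all libraries.

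Rrm2, the small subunit of ribonucleotide reductase, which makes deoxynucleotides, followed Pcna in the native libraries. Its values were 3.76 and 3.54 in FLAG crosslinked and 3.31 and 3.27 in WT crosslinked libraries. In native libraries they were 4.67, 3.70 and 4.46 for FLAG and 3.69, 3.81 and 3.18 for WT. As for Pcna, the crosslinked groups were separate and FLAG native replicate 2 was among the WT values. The log2 fold change was 0.36 ± 0.12 crosslinked, 0.72 ± 0.30 native and 0.58 ± 0.20 over all libraries (limma, adjusted p = 0.167). Rrm1, the large subunit of the same enzyme, was 5.54, 4.61 and 5.31 in FLAG native and 4.67, 4.72 and 4.80 in WT native libraries, again with replicate 2 apart. Its log2 fold change was 0.13 ± 0.12 crosslinked and 0.42 ± 0.25 native. Tyms, which makes thymidylate, had −0.09 ± 0.09 and −0.49 ± 0.29, so that the 3 nucleotide supply genes did not share a sign.

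Among the helicase subunits, Mcm4 was 3.61 and 3.69 in FLAG crosslinked and 3.49 and 3.02 in WT crosslinked libraries. In native libraries it was 5.06, 3.51 and 4.46 for FLAG and 3.73, 3.84 and 3.61 for WT, with FLAG replicate 2 below every WT library and the other FLAG libraries above them. The log2 fold change was 0.39 ± 0.19 crosslinked, 0.62 ± 0.36 native and 0.53 ± 0.25 over all libraries (limma, adjusted p = 0.251). Mcm2, a commonly used marker of cells licensed to replicate, was 3.29 and 3.13 in FLAG and 3.16 and 3.18 in WT crosslinked libraries, a difference of 0.04 ± 0.10. In native libraries Mcm2 was 4.37, 3.45 and 4.06 for FLAG and 3.20, 3.87 and 3.66 for WT, a difference of 0.38 ± 0.30, or 0.64 ± 0.25 without FLAG replicate 2 (limma, adjusted p = 0.0999). Over all libraries 4 of the 6 subunits were above 0, and Mcm5 (−0.06 ± 0.15) and Mcm6 (−0.16 ± 0.13) were below, although the 6 proteins form a single hexamer. That count was not kept without both shallow libraries, where Mcm2 was −0.033, Mcm3 −0.021 and Mcm7 −0.10, which left Mcm4 alone above 0. Replicate 2 was then the only FLAG native library, and whether it or the shallow libraries made the difference was not tested. With array weights Mcm3 (−0.031) and Mcm7 (−0.12) were below 0 as well, and with the exonic share trend removed Mcm7 was −0.043.

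**Figure D2:**
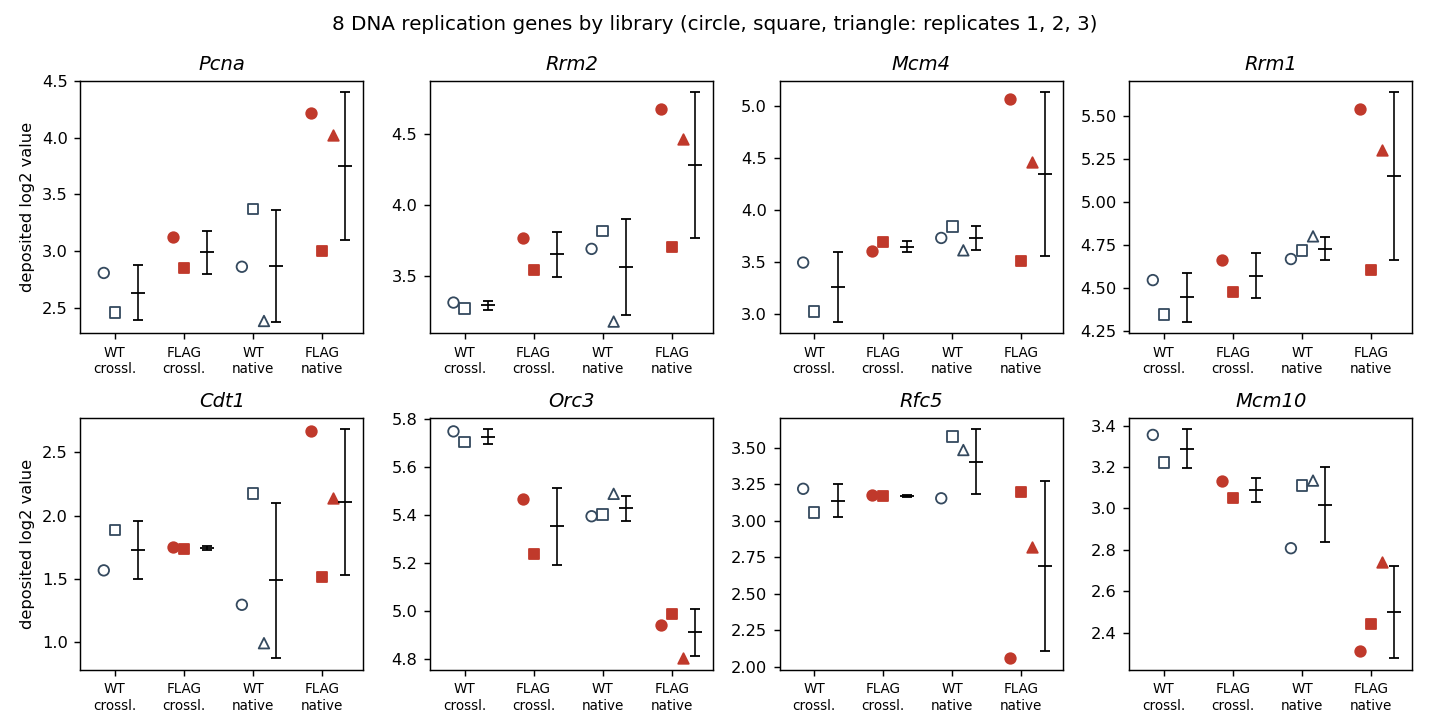
Deposited log2 values (y axis) of 8 DNA replication genes in WT and FLAG libraries of each protocol (x axis), with one symbol per library and a bar for mean ± SD (n = 2 crosslinked, n = 3 native). For Pcna, Rrm2, Mcm4 and Rrm1, FLAG native replicates 1 and 3 lie above every WT native library and replicate 2 does not, and for Orc3 and Mcm10 every FLAG library lies below every WT library of its protocol.

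Leaving out FLAG native replicate 2 changed the native result. With 2 FLAG against 3 WT libraries, 4 members passed the test, all higher in FLAG: Pcna at 1.25 ± 0.30 (limma, adjusted p = 0.0271), Mcm4 at 1.03 ± 0.22 (adjusted p = 0.0197), Rrm2 at 1.01 ± 0.24 (adjusted p = 0.0250) and Rrm1 at 0.70 ± 0.16 (adjusted p = 0.0234). In that fit 19.9% of all genes passed, a larger share than 4 of 43 members. Over all libraries but replicate 2, 0 members passed, beside 4.42% of all genes, with Pcna at 0.84 (limma, adjusted p = 0.0704), Mcm4 at 0.74 (0.0536) and Rrm2 at 0.71 (0.0557). Orc3 was then −0.47 with an adjusted p of 0.0352 by limma, within the fold threshold, and Rfc5 was lower at −0.51. Over all alternatives tried, the adjusted p in native cultures ran from 0.0238 to 0.719 for Pcna, from 0.0197 to 0.742 for Mcm4, from 0.0250 to 0.719 for Rrm2 and from 0.0234 to 0.719 for Rrm1. Weighting libraries by their fit to the model gave 4 calls too, Pcna, Rrm2 and Mcm4 higher and Orc2 lower, with 22.5% of all genes passing. Without both shallow libraries, replicate 2 was the only FLAG native library left. The values were then 0.26 for Pcna, 0.13 for Mcm4, 0.27 for Rrm2 and 0.02 for Rrm1. They were 0.67, 0.53, 0.58 and 0.30 over all libraries. Gins2, at 0.31, was above Pcna and Rrm2 without both shallow libraries. Orc2 was −0.13 without them and −0.29 with them, and in FLAG native replicate 2 it was 4.47, below every WT native library (4.68 to 4.76).

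Orc3, a subunit of the origin recognition complex, had the lowest FLAG over WT value over all libraries when no trend was removed. With the exonic share trend removed Orc3 was −0.42, and Rfc5 (−0.58), Tyms (−0.49) and Mcm10 (−0.48) were lower. The values of Orc3 were 5.47 and 5.24 in FLAG crosslinked and 5.75 and 5.70 in WT crosslinked libraries. In native libraries it was 4.94, 4.99 and 4.80 for FLAG and 5.40, 5.40 and 5.49 for WT, so that in both protocols every FLAG library was below every WT library, replicate 2 included. The log2 fold change was −0.37 ± 0.11 crosslinked, −0.52 ± 0.17 native and −0.46 ± 0.09 over all libraries (limma, adjusted p = 0.0661), which was within the fold threshold. Its transcript shares no 75-base window with another gene. The other subunits ranged from −0.29 ± 0.16 for Orc2 to 0.07 ± 0.22 for Orc6 over all libraries, and every one of Orc1 to Orc6 was below 0 in native cultures.

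Mcm10, which helps activate the loaded helicase, showed the same arrangement as Orc3. Its values were 3.13 and 3.05 against 3.36 and 3.22 in crosslinked libraries, and 2.31, 2.44 and 2.74 against 2.81, 3.11 and 3.13 in native libraries, FLAG first. The fold change was −0.39 ± 0.14 over all libraries (limma, adjusted p = 0.174). Mcm10 and Orc3 were the only 2 of 43 members with every FLAG library below every WT library in both protocols, an arrangement seen for 4.47% of all genes. No member had every FLAG library above every WT library in both protocols, against 4.84% of all genes. Gins2, a subunit of the GINS complex, was the 1 member so separated in native cultures, at 3.52, 3.52 and 3.51 in FLAG and 3.18, 3.05 and 3.07 in WT libraries. In 8.62% of all genes the native FLAG libraries were likewise all above WT. The fold change of Gins2 was 0.34 ± 0.12 over all libraries (limma, adjusted p = 0.161), or 0.18 with the exonic share trend removed, and 70.2% of its windows are shared with Gse1, which overlaps it on the other strand. Its sister subunits Gins1 and Gins3 had −0.25 ± 0.15 and 0.03 ± 0.22, or −0.10 and −0.022 with the exonic share trend removed.

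Rfc5, a clamp loader subunit, had the lowest native value of the members, although with array weights it was −0.63 and Tyms was −0.72. It was 3.17 in both FLAG and 3.22 and 3.06 in WT crosslinked libraries. In native libraries it was 2.06, 3.20 and 2.82 for FLAG and 3.15, 3.57 and 3.48 for WT. The difference was 0.03 ± 0.10 crosslinked and −0.71 ± 0.32 native, where the groups overlapped. Over all libraries it was −0.42 ± 0.23 (limma, adjusted p = 0.305), and without both shallow libraries −0.07.

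The licensing factor Cdt1, which is degraded as cells enter S phase, was 1.75 and 1.73 in FLAG and 1.57 and 1.89 in WT crosslinked libraries. In native libraries it was 2.67, 1.51 and 2.14 for FLAG and 1.30, 2.17 and 0.99 for WT, with the groups overlapping in both protocols. Its fold change over all libraries was 0.38 ± 0.28 (limma, adjusted p = 0.427), and it was 0.02 without both shallow libraries, 0.13 with the exonic share trend removed and 0.18 with array weights. Dnmt1, the maintenance DNA methyltransferase that copies methylation onto new strands, was 6.31 and 6.25 in FLAG and 6.13 and 6.22 in WT crosslinked libraries. In native libraries it was 6.71, 6.002 and 6.11 against 5.95, 6.22 and 6.35. Uhrf1, which recruits Dnmt1 to hemimethylated DNA, was 4.56 and 4.71 against 4.70 and 4.61 in crosslinked and 4.75, 4.17 and 4.59 against 4.20, 4.84 and 4.49 in native libraries. Dnmt1 was higher in both FLAG than in both WT crosslinked libraries, and its native groups overlapped, as did those of Uhrf1 in both protocols. Over all libraries the differences were 0.11 ± 0.14 for Dnmt1 (−0.009 without both shallow libraries) and −0.01 ± 0.15 for Uhrf1. Chaf1a and Chaf1b, subunits of the assembly factor that puts histones on new DNA, had −0.26 ± 0.14 and −0.31 ± 0.14.

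The 6 polymerase and primase genes were the only role group with every member below 0 over all libraries, from −0.30 ± 0.13 for Pole, the leading-strand polymerase, to −0.07 ± 0.13 for Prim1, a primase subunit. Pola2 (−0.11 ± 0.12) and Pold1 (−0.21 ± 0.19) lay between these. In native cultures the median of the 6 genes was −0.35, and in crosslinked cultures −0.01. With the exonic share trend removed Prim2 was 0.02 and Pola1 −0.01, and with the GC and length trend removed Prim1 was 0.014, so that the shared sign did not hold there. None passed the test. Pola1, Pole and Prim2 were among 7 of 43 members with every FLAG native library below every WT native library, an arrangement of 10.8% of all genes. In crosslinked cultures 7 members were so placed below (19.9% of all genes) and 5 above (19.1%), the latter being Pcna, Rrm2, Mcm4, Dnmt1 and Orc6. Of the lagging-strand genes, Rpa1 and Lig1 had −0.12 ± 0.11 and −0.15 ± 0.13, and Rpa2 had 0.18 ± 0.31. The flap nuclease gene Fen1 had 0.27 ± 0.29, or −0.18 without both shallow libraries, and 80.0% of its windows are shared with overlapping genes, among them Tmem258, so its counts are uncertain. Chaf1a shares 47.2% of its windows with other genes, among them Ubxn6, and Mcm7 shares 20.5%, among them with Ap4m1. Ubxn6 and Ap4m1 overlap these members on the opposite strand. Whether the counting used strand is not given in the sources used here.

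**Figure D3:**
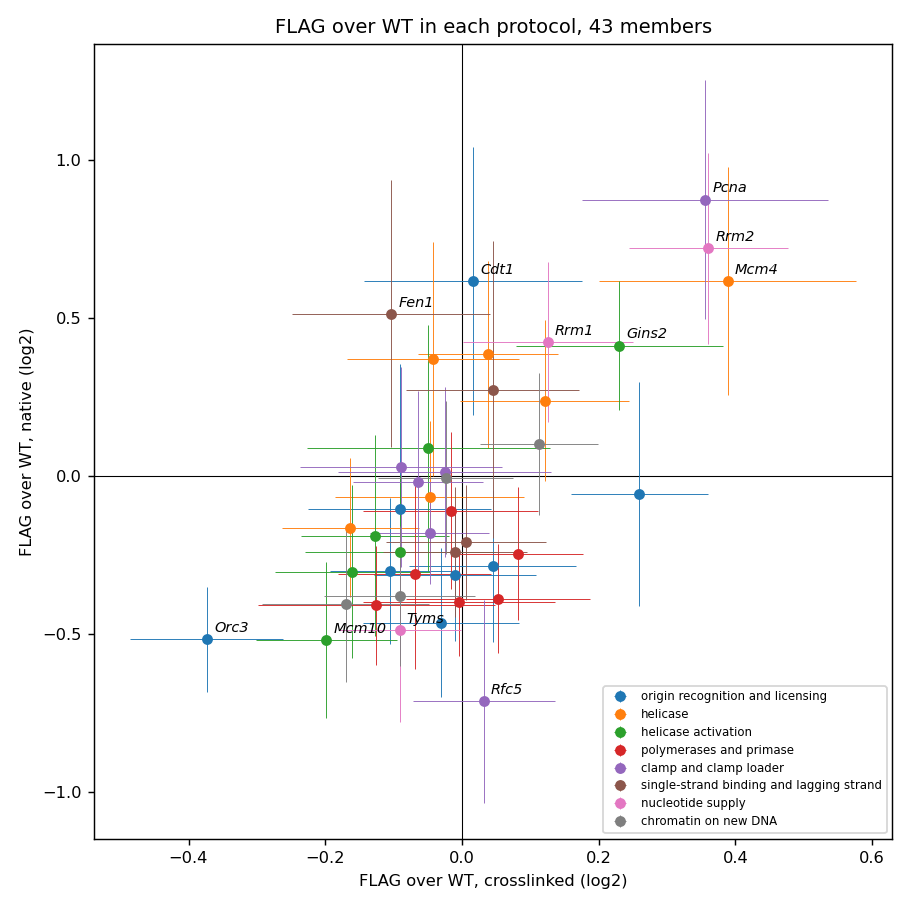
FLAG over WT difference of each of the 43 DNA replication genes in crosslinked (x axis, log2) and native cultures (y axis, log2), with bars for ± 1 SE of the limma fit and colours for role. Pcna, Rrm2 and Mcm4 lie at the upper right, Orc3 and Mcm10 at the lower left, and Rfc5 lies near 0 on the x axis and lowest on the y axis.

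Whether the FLAG over WT difference itself differed between protocols was tested with an interaction term. No member passed, and 0.0% of all genes did. The lowest adjusted p over all genes was 0.970, and no member had an unadjusted p under 0.05 (0.428% of all genes). Without FLAG native replicate 2, 0 members passed, beside 0.00629% of all genes (1 gene, adjusted p = 0.0256). In that fit 6 members had an unadjusted p under 0.05, beside 18.1% of all genes: Rrm1 and Fen1 with a higher FLAG over WT difference in native cultures, and Prim2, Rfc5, Pola1 and Orc1 with a lower one. Comparing native with crosslinked libraries within a genotype, 0 members passed in WT (0.333% of all genes passed) and 0 in FLAG (0.44%). With the random block the counts were again 0 and 0, beside 0.579% and 1.21% of all genes. In WT libraries 1 member, Cdc7, had an unadjusted p under 0.05 with the fold threshold, beside 6.4% of all genes. In FLAG libraries 7 members had an unadjusted p under 0.05 with the fold threshold, beside 12.1% of all genes: Mcm2, Fen1 and Rrm1 higher in native libraries and Orc6, Mcm10, Cdc7 and Gins1 lower. Cdc7, the kinase that fires origins, was −0.79 ± 0.21 in FLAG (limma, adjusted p = 0.145) and −0.64 ± 0.21 in WT (adjusted p = 0.438). Without FLAG native replicate 2, 9 members passed in FLAG, with Mcm2, Mcm3, Mcm4, Fen1, Pcna, Rrm1 and Rrm2 higher in native libraries and Gins1 and Cdc7 lower, beside 16.7% of all genes.

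Levels of the members were higher in longer genes. The deposited values are not divided by length, and across the 43 members the mean WT level had a Spearman correlation of 0.82 with gene span and of 0.63 with summed exon length, which are correlations across genes that share libraries. Per kb of exon, Pola1 (4.45 on the log2 scale) and Prim2 (3.78) were highest. These genes span 327389 and 215986 bases, of which exons make up 2.69% and 2.75%. Per kb of gene span the order changed, and Rrm2 (1.18), Pcna (1.06) and Mcm7 (0.96) were highest, while Gins3 (−2.52) was lowest on this scale and also per kb of exon (−0.42).

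The FLAG over WT difference was lower in members with a longer gene span, with a Spearman correlation of −0.25 in crosslinked and −0.61 in native cultures, beside −0.15 and −0.43 over 6953 genes with a mean linear value of at least 10. Among the members it had a Spearman correlation with the exonic share of the gene of 0.25 in crosslinked and 0.48 in native cultures, beside 0.18 and 0.45 over 6945 genes with such a mean. Of the 21 members above the median exonic share of 23.3%, 11 were above 0 in native cultures, and of the 22 others 4 were. Pcna (57.8% exonic), Cdt1 (56.7%) and Rrm2 (46.9%) were at the high end, and Rfc5 (42.7%) had a low value at a high share. Orc3 (13.8%) was low in both. When each library's trend on exonic share was removed, the native difference became 0.49 ± 0.26 for Pcna, 0.45 ± 0.22 for Rrm2 and −0.05 ± 0.13 for Pola1 (−0.40 ± 0.17 before), while Orc3 was −0.45 ± 0.14. Other members moved further from 0, with Rfc5 from −0.71 to −0.98, Tyms from −0.49 to −0.73 and Mcm10 from −0.52 to −0.66, and Mcm4 was 0.50 (0.62 before). Over all libraries Mcm4 (0.45) was then above Pcna (0.42). The part of exonic share in these differences was not tested further.

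**Figure D4:**
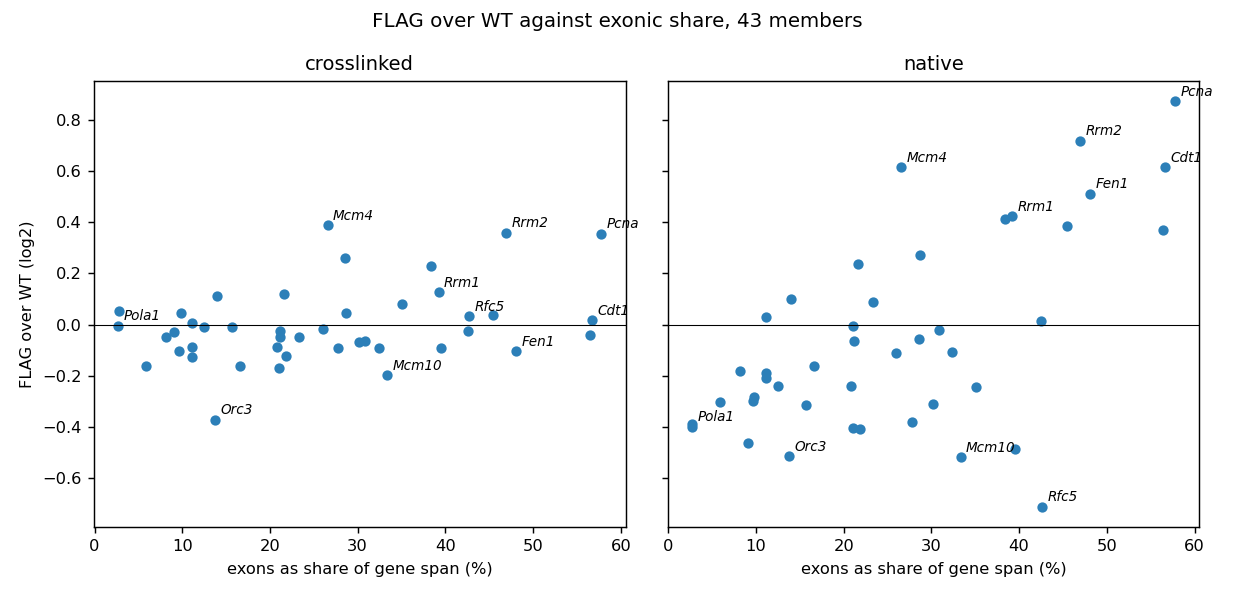
FLAG over WT difference (y axis, log2) of the 43 DNA replication genes against the share of the gene span that is exon (x axis, %), in crosslinked and native cultures, with one point per gene. In native cultures most points below 20% lie under 0 and the 3 highest values are those of Pcna, Rrm2 and Cdt1 at 46.9% to 57.8%.

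The bipartite MEX-3 recognition element, 2 parts of 4 bases with a spacer of up to 8 bases, was searched for on the sense strand of the longest annotated 3′ untranslated region of each gene (GENCODE M21, GRCm38), counting overlapping matches by each start. It was found in 31 of 43 members, with 2.59 matches per kb, and in 79.0% of 12181 genes, with 2.67 per kb. Rrm2 had 7.66 matches per kb, Mcm4 6.41 and Pcna 4.41, and Rfc5 (2.93) and Mcm10 (2.38) had matches as well. Orc3 had none in a region of 117 bases. The matches nearest the end of the region are shown for the members at both ends of the order, 5′ to 3′, with the 2 parts of the element in capitals.
Pcna (chr2:132249162-132249191, minus strand): taaaaaaatgtttctctTGAGTTTAtgtaa
Pcna (chr2:132249232-132249261, minus strand): tggctactgaATAGtTATAccctgttaggt
Rrm2 (chr12:24713933-24713962, plus strand): tgttccctgagGTAGTTTActgtgatctag
Rrm2 (chr12:24713821-24713850, plus strand): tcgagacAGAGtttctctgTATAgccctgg
Mcm4 (chr16:15624005-15624034, minus strand): atagtgctggATAGgtTATAaaaaaatcaa
Rfc5 (chr5:117378428-117378457, minus strand): taagatgtTGAGtttctTTTAaaataattt
Mcm10 (chr2:4989714-4989743, minus strand): ccaactattaaATAGtttcaTATAaatcca
Members on both sides of 0 carried the element. The Spearman correlation of matches per kb with the FLAG over WT difference was 0.31 in crosslinked and 0.15 in native cultures over the 43 members, and 0.11 and 0.02 over 6286 genes with a mean of at least 10. The element is short, and a match in these letters is not evidence of binding.

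Other genes of the pathway were described beside the members. Of 55 further replication genes, among them fork, licensing and nucleotide genes and the E2F and retinoblastoma family, all were in the table and 0 passed over all libraries, with 25 above 0 and a median of −0.01. The highest was Pole3, a histone-fold subunit of polymerase epsilon, at 0.67 ± 0.16 crosslinked, 0.83 ± 0.34 native and 0.77 ± 0.21 over all libraries (limma, adjusted p = 0.116), and its catalytic partner Pole was below 0 in all 3. The E2F and retinoblastoma family, which controls the transcription of many replication genes, had a median of −0.01 over 12 genes. Of 40 mitosis genes 0 passed, with a median of −0.10 and values from −0.68 ± 0.25 for Ccnb2 to 0.72 ± 0.27 for Ccna2, both cyclins of dividing cells.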

How the data were processed

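The deposited table holds log2 values for 15899 genes in 10 libraries. The authors prepared stranded libraries with random hexamers, and the submitters' processing notes name FastQC, cutadapt, Trimmomatic, HISAT2, featureCounts and limma on GRCm38. The authors removed low-count genes and normalised the libraries, after which values are distributed almost identically in all of them. The sources differ on this step, since the methods name a count-based package for normalisation whereas the processing notes name limma. Which normalisation made the deposited values is not settled, and a log2 difference holds only on their scale, above all for the shallow libraries. Depth per library is therefore unknown. The methods call the replicates biological and the cultures their source, and which animals each came from is not given in the sources used here. Crosslinked and native libraries of 1 genotype and number had positively correlated deviations from their group means (0.22 and 0.11 in FLAG, 0.37 and 0.47 in WT), so these numbers were taken to pair libraries across protocols. With 2 crosslinked libraries a group, these 4 values are not independent. Differently numbered pairs ran from −0.47 to 0.29, the latter for WT crosslinked replicate 1 with WT native replicate 3. The random block (duplicateCorrelation) had a consensus correlation of 0.17 with 4 groups and 0.33 with protocol as a covariate, the latter added after seeing the data.

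FLAG was compared with WT within each protocol and over all libraries with protocol as a covariate. Protocols were compared within each genotype in 1 fit with an interaction term. The tests used limma 3.58.1 (lmFit and eBayes with trend) in R 4.3.3, with Benjamini-Hochberg adjustment over all genes. A call needed an adjusted p under 0.05 and a log2 fold change beyond 0.58. The count test of the methods could not be used on log2 values. In data simulated for 15899 genes, of 100 genes changed by 2 on the log2 scale 0% were recovered in the crosslinked comparison, 64% in the native one and 92% over all libraries. Of 100 changed by 1, 0%, 16% and 54% were recovered. The simulation gave all libraries the same SD for a gene. In the data the members' median SD was 0.09 in FLAG and 0.11 in WT crosslinked, and 0.33 in FLAG and 0.20 in WT native libraries. The recovered shares therefore need not hold in the data.

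The members, gene lists and tests were chosen with earlier results of these data known. All members are named by role, with values by library for Pcna, Mcm2, Rrm2, Cdt1, Uhrf1, Dnmt1, the 3 highest and the 3 lowest over all libraries. Rrm1 and Gins2 were added after their values were seen. GENCODE M21, which gave exons and untranslated regions, held 15864 of the genes by ID. Alternatives were a pseudocount of 1, a mean of at least 10, centring on protein-coding genes, removal of trends on GC and length or, chosen after seeing the data, on exonic share in 20 bins, blocks for replicate number, array weights, and leaving out libraries (both shallow ones together after seeing the data).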

Additional observations from a re-analysis of the deposited data

How the results depend on the processing

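The FLAG over WT count of members passing the test was 0 in every crosslinked alternative. In native cultures it was 2 at an unadjusted p, 4 with array weights and between 0 and 4 when a library was left out. Over all libraries it was 1 at an unadjusted p and otherwise 0. For native over crosslinked, it was 1 at an unadjusted p and 1 with array weights in WT (5.43% of all genes with the weights). In FLAG it was 7 at an unadjusted p, 3 with array weights (9.36% of all genes) and between 0 and 9 when a library was left out. The highest counts came without FLAG native replicate 2. A mean linear value of at least 10 left 27 of 43 members. Pcna, Gins2, Rfc5, Mcm10, Cdt1 and Fen1 were among those it removed. Where leaving out a library left 1 crosslinked library in a group, that library was assumed to vary like the others. Every median of the members moved by less than 0.155, the SD of the members' median between libraries of a group. With the replicate block, the counts were 0 in each FLAG over WT comparison and the median over all libraries was −0.11. No pairing of FLAG with WT libraries by number was seen. Same-numbered libraries had correlations of their deviations of −0.30 in crosslinked and from −0.56 to −0.24 in native cultures. Differently numbered ones had 0.30, and from −0.42 to 0.51. Deviations sum to 0 within a group, so these values are not independent. With 2 libraries a group, −0.30 and 0.30 are 1 value with its sign reversed. Crossing the numbers in crosslinked cultures gave 0 calls. In crosslinked cultures 0% was recovered in the simulation, which gave all libraries the same SD although crosslinked libraries varied less than native ones. In the data 0 genes of the whole table passed there, which limits what a count of 0 members can show.

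Over all libraries, 23 of 43 members kept their sign in every alternative run for them, and 20 did not in at least 1. There were 19 such alternatives, and 18 for the 16 members with a lower mean than 10. The highest absolute value among those 20 was 0.30, for Rrm1. The cause was not tested. Array weights favoured 1 crosslinked library of each genotype. With them, the value was 0.041 for Orc1, −0.031 for Mcm3, −0.12 for Mcm7, −0.13 for Gins3, −0.065 for Rpa2 and −0.024 for Rrm1. Without both shallow libraries, the value was 0.087 for Orc1, −0.033 for Mcm2, −0.021 for Mcm3, −0.10 for Mcm7, −0.11 for Rpa2, −0.18 for Fen1 and −0.009 for Dnmt1. With the exonic share trend removed, the value was −0.01 for Orc6, −0.043 for Mcm7, −0.022 for Gins3, 0.02 for Prim2, 0.004 for Rfc1 and 0.052 for Rfc4. With the GC and length trend removed, the value was 0.014 for Prim1, 0.043 for Rfc3 and 0.028 for Rfc4. With genotype and number as a random block, the value was 0.008 for Rfc3 and 0.002 for Rfc4. When 1 library at a time was left out, the value ran from −0.11 to 0.23 for Orc6, from −0.35 to 0.17 for Cdc6, from −0.16 to 0.006 for Mcm5, from −0.30 to 0.017 for Cdc45, from −0.037 to 0.15 for Gins3, from −0.20 to 0.049 for Rfc2, from −0.049 to 0.051 for Rfc3, from −0.13 to 0.11 for Rfc4, from −0.12 to 0.33 for Rpa2, from −0.098 to 0.077 for Uhrf1 and from −0.012 to 0.18 for Dnmt1.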
